A study of Mus musculus with 12 samples.

Results

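The genes of cholesterol and fatty acid synthesis described here were a list of 36 genes, chosen by name, in neural stem cells (NSCs) of the mouse subventricular zone (SVZ). Earlier results of these data were known when the list was chosen. The list held 18 enzymes of sterol synthesis, 3 genes of sterol sensing and transport, 4 genes of the liver X receptors and cholesterol export, and 11 genes of fatty acid synthesis. Of the 36, 35 were found among the 37991 genes of the count table, and all 35 had enough reads to be tested together with the other genes, 17623 in all. Hmgcs1 was not analysed here.

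RNA was sequenced from GFP+ cells sorted from the SVZ of C57BL/6 mice that carried CreERT2 in the Gli1 locus and the RCE reporter, which expresses GFP once Cre has acted. The knocked-in CreERT2 is a null allele, so that the Gli1Het mice had 1 working copy of Gli1. The 4 groups were Gli1Null mice (Gli1CreERT2/CreERT2;RCEfx/fx, no working Gli1) on 0.2% cuprizone, Gli1Het mice (Gli1CreERT2/+;RCEfx/fx) on 0.2% cuprizone, Gli1Null mice on regular chow and Gli1Het mice on regular chow, with 3 libraries in each and 2 brains, from 1 male and 1 female mouse, pooled in each library. All mice were given 5 mg tamoxifen per injection from 10 weeks of age, and the cuprizone groups then received for 3 weeks chow with cuprizone, which binds copper and causes loss of oligodendrocytes and of myelin in the corpus callosum. GFP marks every cell that descends from a Gli1-expressing cell after tamoxifen, so the sort takes the progeny of the stem cells as well, and the p-values measure the spread between pools of mice.

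Cells make cholesterol from acetyl-CoA through mevalonate, farnesyl diphosphate, squalene and lanosterol. The transcription factor SREBP2, the product of Srebf2, raises the enzymes of this route and the uptake of lipoproteins when sterol in the endoplasmic reticulum is low, while Insig proteins hold it back when sterol is plentiful. Oxidised sterols and late sterol intermediates activate the liver X receptors, which raise cholesterol export through Abca1 and Abcg1 and the gene Srebf1, whose product SREBP1 drives fatty acid synthesis. In the brain cholesterol is made locally, since lipoproteins of the blood do not cross into it, and much of it goes into myelin.

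The start regions of 5 members are shown: Cyp51 and Insig1 as genes of the sterol route, and Abca1, Srebf1 and Fasn because they share a sequence that the liver X receptors are known to bind. Whether these routes control the changes described below was not tested. Each is 250 bases before to 50 bases after a RefSeq gene start on GRCm38.p6 (mm10), and 28 of the 36 members had at least 1 such window in the table used. Capitals mark the CCAAT box (CCAAT or ATTGG), the GC box (GGGCGG or CCGCCC) and, in the last 3 windows, the 12-base word of a receptor binding repeat, GGTTACT then any 2 bases then CGG, which there reads from the other strand as CCG, any 2 bases and AGTAACC. In the Fasn window a CCAAT and an ATTGG share bases, so their capitals run together.
Cyp51, chr5:4104648-4104947, minus strand: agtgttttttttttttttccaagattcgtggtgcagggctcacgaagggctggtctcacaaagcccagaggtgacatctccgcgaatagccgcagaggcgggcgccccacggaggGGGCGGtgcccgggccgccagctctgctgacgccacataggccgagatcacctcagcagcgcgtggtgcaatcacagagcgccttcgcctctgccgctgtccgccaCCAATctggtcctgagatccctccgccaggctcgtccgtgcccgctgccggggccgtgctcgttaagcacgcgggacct
Insig1, chr5:28071162-28071461, plus strand: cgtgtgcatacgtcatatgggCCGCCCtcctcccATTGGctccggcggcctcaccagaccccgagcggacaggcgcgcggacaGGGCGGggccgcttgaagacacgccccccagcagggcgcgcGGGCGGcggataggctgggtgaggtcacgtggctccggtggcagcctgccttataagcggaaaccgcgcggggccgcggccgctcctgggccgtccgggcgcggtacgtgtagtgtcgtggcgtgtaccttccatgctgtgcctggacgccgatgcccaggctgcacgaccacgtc
Abca1, chr4:53159846-53160145, minus strand: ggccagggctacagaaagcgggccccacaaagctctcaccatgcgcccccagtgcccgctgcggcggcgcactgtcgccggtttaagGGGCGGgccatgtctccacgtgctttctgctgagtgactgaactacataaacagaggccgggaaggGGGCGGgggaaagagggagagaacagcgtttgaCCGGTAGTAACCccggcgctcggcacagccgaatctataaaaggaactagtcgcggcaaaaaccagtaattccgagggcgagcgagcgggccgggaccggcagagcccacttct
Srebf1, chr11:60210422-60210721, minus strand: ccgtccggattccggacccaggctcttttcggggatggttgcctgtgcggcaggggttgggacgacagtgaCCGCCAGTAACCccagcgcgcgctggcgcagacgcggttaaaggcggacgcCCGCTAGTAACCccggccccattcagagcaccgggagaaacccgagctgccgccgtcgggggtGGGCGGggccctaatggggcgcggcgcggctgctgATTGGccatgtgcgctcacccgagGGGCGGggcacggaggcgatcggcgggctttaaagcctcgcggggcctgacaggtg
Fasn, chr11:120824498-120824797, minus strand: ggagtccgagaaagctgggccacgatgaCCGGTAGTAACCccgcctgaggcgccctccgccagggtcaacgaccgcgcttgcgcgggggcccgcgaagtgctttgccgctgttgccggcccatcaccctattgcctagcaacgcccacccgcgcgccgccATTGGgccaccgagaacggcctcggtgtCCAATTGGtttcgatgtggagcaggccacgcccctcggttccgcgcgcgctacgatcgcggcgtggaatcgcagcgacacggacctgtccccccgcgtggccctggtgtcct
The receptor word was searched after the windows had been seen, on both strands. It lay in 9 of 32851 mouse windows (0.0274%), among them those of 3 members, Abca1, Srebf1 and Fasn, and it occurred 2 times in the Srebf1 window. Windows with a CCAAT box made up 62.9% of the member windows, against 37.4% of all windows, and windows with a GC box 68.6%, against 35.7%. By class, 14 of the 15 sterol synthesis genes with a window held a CCAAT box, both Srebf2 and Insig1 did, 5 of 8 fatty acid genes did, and 0 of 3 genes of the liver X receptors and export did. The sterol regulatory element as TCACNCCAC, on both strands, was in 1.24% of all windows and among the members only in that of Hmgcs1, and the E-box form TCACGTGA was in 0.974% of all windows and in no member's. A match is a description of the sequence only.

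Gli1, the targeted gene, was low in the Gli1Null libraries, with 0.626, 0.469 and 0.739 CPM (counts per 1000000 counts in genes) on cuprizone and 0.362, 0.389 and 0.293 CPM on the control diet. The Gli1Het libraries held 21.5, 0.837 and 3.84 CPM on cuprizone and 8.65, 18.3 and 17.8 CPM on the control diet. The library labelled Gli1Het cuprizone replicate 2 thus lay near the Gli1Null level, though above each Gli1Null library, and was low in Gli1 for its label. In Gfap it lay on the side of its label. Gfap was at 461, 1282 and 658 CPM in Gli1Het cuprizone and 199, 200 and 265 CPM in Gli1Null cuprizone NSCs. The cause of the low Gli1 level was not tested. The library labelled Gli1Het cuprizone replicate 2 also held the highest level of the 12 for 16 of the 35 members, 7 of sterol synthesis, 2 of sensing and transport, 7 of fatty acid synthesis and 0 of the liver X receptors and export. The same count was not made over all genes, so it cannot be read as a trait of the members. The coefficient of variation of a member had a median of 6.75% in Gli1Null cuprizone, 25.1% in Gli1Het cuprizone, 9.77% in Gli1Null control and 15.9% in Gli1Het control NSCs. Results for Gli1Het NSCs are therefore given with and without this library. Total counts in genes ranged over the libraries from 13752801 to 32468063, and all 9 markers of neural stem cells and astrocytes were measured in every library, at a summed level of 6719.6 to 8221 CPM in Gli1Null cuprizone NSCs against 4323 to 4985 CPM in Gli1Null control NSCs, and 7053 to 9503 CPM in Gli1Het cuprizone NSCs against 3251 to 5859 CPM in Gli1Het control NSCs.

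Markers of other cells moved with the diet as well. The 9 neuroblast markers summed to 3186 to 3371 CPM in Gli1Null cuprizone NSCs against 5117 to 5307 CPM in Gli1Null control NSCs, and 357 to 3089.6 CPM in Gli1Het cuprizone NSCs against 4582 to 6107 CPM in Gli1Het control NSCs, with 0 of 9 called by edgeR in Gli1Null NSCs (0 at an unadjusted p under 0.05) and 7 of 9 lower in Gli1Het NSCs. By library the Gli1Het cuprizone sums were 3089.6, 357 and 1137 CPM for replicates 1, 2 and 3. Replicate 1 thus lay just below the Gli1Null cuprizone libraries and apart from the other Gli1Het cuprizone libraries. It also held the highest Gli1 level of its group, 21.5 CPM. The 5 oligodendrocyte precursor markers summed to 181 to 208 CPM in Gli1Null cuprizone NSCs against 71.1 to 96.5 CPM in Gli1Null control NSCs, and 228 to 464 CPM in Gli1Het cuprizone NSCs against 67.3 to 105 CPM in Gli1Het control NSCs, with 2 of 5 higher in Gli1Null and 3 of 5 in Gli1Het NSCs. The 8 markers of myelinating oligodendrocytes, which make large amounts of cholesterol, summed to 262 to 434 CPM in Gli1Null cuprizone NSCs against 459.9 to 619 CPM in Gli1Null control NSCs, and 177 to 356 CPM in Gli1Het cuprizone NSCs against 311 to 1152 CPM in Gli1Het control NSCs, with 0 of 8 called in Gli1Null NSCs (1 at an unadjusted p under 0.05) and 2 of 8 lower in Gli1Het NSCs. The 10 markers of microglia and macrophages, cells with active liver X receptors, summed to 19.4 to 30.7 CPM in Gli1Null cuprizone NSCs against 27.6 to 32.8 CPM in Gli1Null control NSCs, and 32.9 to 66.7 CPM in Gli1Het cuprizone NSCs against 19.0 to 30.6 CPM in Gli1Het control NSCs, with 0 of 10 called in Gli1Null NSCs (2 at an unadjusted p under 0.05) and 5 of 10 higher in Gli1Het NSCs. The 4 ependymal markers summed to 72.1 to 80.4 CPM in Gli1Null cuprizone NSCs against 26.0 to 32.9 CPM in Gli1Null control NSCs, and 128 to 426 CPM in Gli1Het cuprizone NSCs against 16.7 to 49.9 CPM in Gli1Het control NSCs, with 1 of 4 higher in Gli1Null and 2 of 4 in Gli1Het NSCs. The 5 endothelial markers summed to 2.32 to 7.18 CPM in Gli1Null cuprizone NSCs against 0.560 to 4.12 CPM in Gli1Null control NSCs, and 0.796 to 3.92 CPM in Gli1Het cuprizone NSCs against 7.14 to 8.0 CPM in Gli1Het control NSCs, with 0 of the 4 tested called in Gli1Null NSCs (1 at an unadjusted p under 0.05) and 2 lower in Gli1Het NSCs. Mog and Opalin were at 0 in the library labelled Gli1Het cuprizone replicate 2. Aif1, a defining microglial gene, was at 0 in 4 of the 12 libraries, 2 of them Gli1Null cuprizone. In bulk RNA fewer cells of a type and less RNA per cell cannot be told apart, and the part of these markers in the results on the members was not tested.

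**Figure D1:**
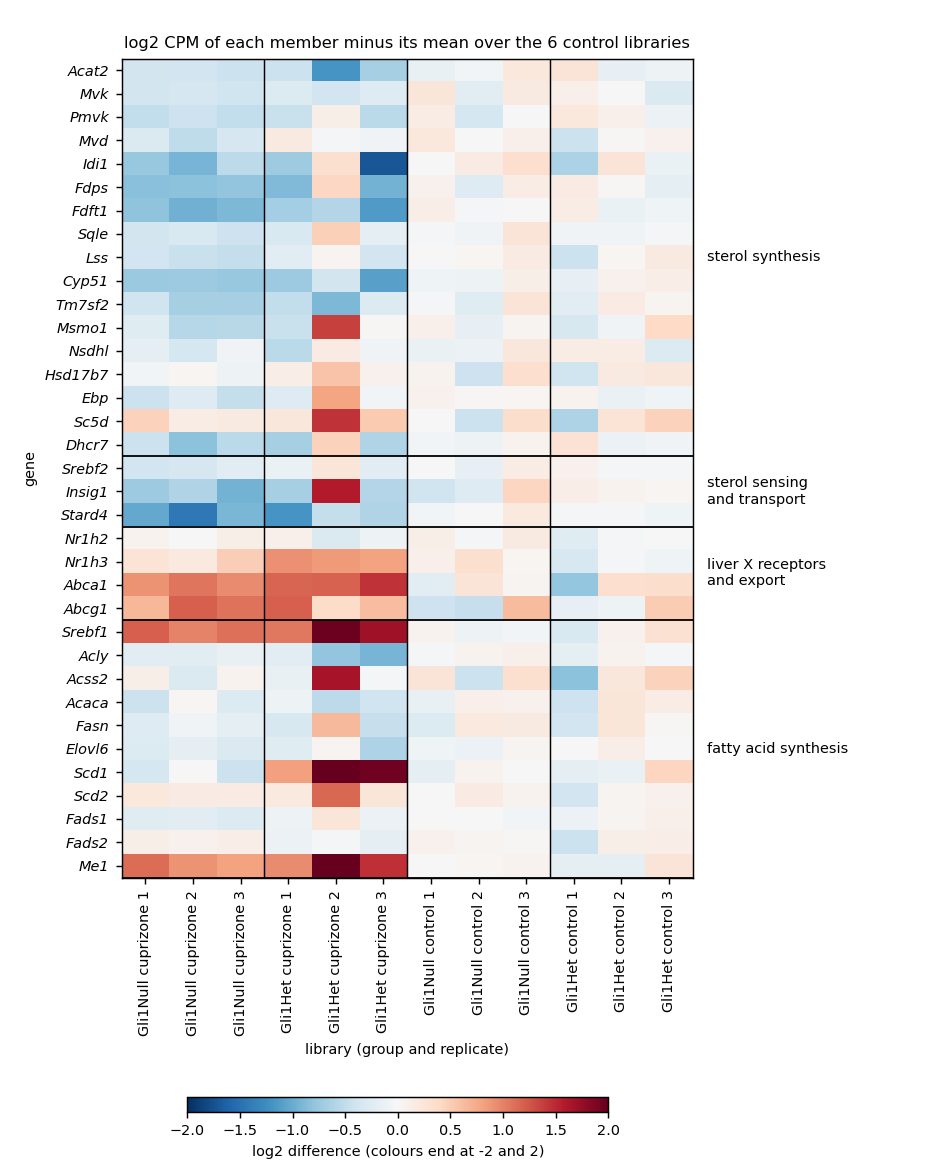
Each row is a member and each column a library, and the colour gives the log2 CPM of the member minus its mean over the 6 control libraries, with red above and blue below that mean and colours ending at -2 and 2. The sterol synthesis rows are mostly blue in the Gli1Null cuprizone libraries, Abca1, Srebf1 and Me1 are red in all 6 cuprizone libraries, and the library labelled Gli1Het cuprizone replicate 2 stands out in 16 rows as the highest of the 12.

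The first question was whether the cuprizone diet changed these genes in each genotype. In Gli1Null NSCs 1 of the 35 members rose (Srebf1) and 3 fell (Fdft1, Cyp51 and Stard4) at an adjusted p of 0.05, where 3.37% of all genes tested rose and 0.25% fell. In Gli1Het NSCs 6 rose (Nr1h3, Abca1, Srebf1, Scd1, Scd2 and Me1) and 6 fell (Acat2, Fdft1, Cyp51, Tm7sf2, Stard4 and Acly), where 18.8% of all genes rose and 15.3% fell. In Gli1Null NSCs 5 members had every cuprizone library above and 20 every one below the control libraries (19.8% and 21.9% of all genes), and in Gli1Het NSCs 6 and 6 did (21.7% and 20.2%). The share of members called in Gli1Het NSCs was thus close to that of all genes, 34.0%. Without the library labelled Gli1Het cuprizone replicate 2, 3 members rose and 8 fell in Gli1Null NSCs, where 7.75% of all genes rose and 2.78% fell in that fit, and 5 rose and 11 fell in Gli1Het NSCs, where 14.7% rose and 12.3% fell. Of the 12 calls in Gli1Het NSCs, 10 were kept in that fit and Tm7sf2 and Scd2 were lost. Among those kept, the log2 fold change there was -0.88 ± 0.143 (edgeR adjusted p = 0.00152) for Fdft1, -0.93 ± 0.127 (edgeR adjusted p = 0.000639) for Cyp51, -0.82 ± 0.225 (edgeR adjusted p = 0.0194) for Stard4, -0.50 ± 0.167 (edgeR adjusted p = 0.0439) for Acly, 1.00 ± 0.180 (edgeR adjusted p = 0.00256) for Nr1h3 and 1.25 ± 0.257 (edgeR adjusted p = 0.00511) for Abca1. The fit estimates 1 spread per gene from all 4 groups, so that a library of 1 genotype also moves the calls in the other. With the 2 diet groups of each genotype fitted alone, 4 members rose and 16 fell in Gli1Null NSCs, where 14.3% of all genes rose and 10.6% fell. In Gli1Het NSCs 3 rose (Nr1h3, Srebf1 and Me1) and edgeR called 0 as lower in that fit, where 5.16% of all genes rose and 0.736% fell and 11 members had an unadjusted p under 0.05. The other 9 calls there had edgeR adjusted p between 0.0554 and 0.173.

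Among the 17 enzymes of sterol synthesis, 2 fell on cuprizone in Gli1Null NSCs, and 14 had all 3 cuprizone libraries below all 3 control libraries, which 21.9% of all genes tested did. Their median log2 fold change was -0.42, with 16 of 17 below 0 (51.7% of all genes were), beside -0.02 over all genes. In Gli1Het NSCs 4 of 17 fell, 4 of 17 had all cuprizone below all control libraries (20.2% of all genes did), 11 of 17 lay below 0 (49.1% of all genes did), and the median was -0.22, beside 0.02 over all genes. Without the library labelled Gli1Het cuprizone replicate 2, the median of the class in Gli1Het NSCs was -0.31, 7 of 17 fell and 14 of 17 lay below 0. In these fits 0 of the 17 rose in either genotype.

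Fdft1 (ENSMUSG00000021273, chr14:63145150-63179578, minus strand, mm10) makes squalene synthase, which joins farnesyl groups in the step that commits them to sterols. Its levels were 107, 96.4 and 101 CPM in Gli1Null cuprizone NSCs, against 205, 182 and 186 CPM in Gli1Null control NSCs. They were 117, 126 and 85.8 CPM in Gli1Het cuprizone NSCs, against 207, 171 and 176 CPM in Gli1Het control NSCs. All 6 cuprizone libraries thus lay below all 6 control libraries. The log2 fold change, cuprizone over control and given here and below with its standard error from 3 libraries a group, was -0.88 ± 0.145 (edgeR adjusted p = 0.00837) in Gli1Null and -0.77 ± 0.145 (edgeR adjusted p = 0.00374) in Gli1Het NSCs, and the call in each genotype was kept when any 1 of the 12 libraries was left out.

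Cyp51 (ENSMUSG00000001467, chr5:4081145-4104746, minus strand) removes a methyl group from lanosterol, and its start region with 1 CCAAT and 1 GC box is printed above. It was at 104, 105 and 102 CPM in Gli1Null cuprizone NSCs, against 164, 162 and 189 CPM in Gli1Null control NSCs, and the groups did not overlap. In the other genotype it was at 104, 134 and 82.0 CPM in Gli1Het cuprizone NSCs, against 155, 183 and 189 CPM in Gli1Het control NSCs. Every cuprizone library again lay below every control library. The log2 fold change was -0.70 ± 0.157 (edgeR adjusted p = 0.0345) in Gli1Null and -0.73 ± 0.157 (edgeR adjusted p = 0.00657) in Gli1Het NSCs. The call in Gli1Het NSCs was kept in each of the 12 fits with a library left out. In Gli1Null NSCs it was kept in 5 of 12 and lost without Gli1Het control replicate 2 or any 1 of the 6 Gli1Null libraries, at adjusted p between 0.0583 and 0.137 and log2 fold changes between -0.73 and -0.61.

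Acat2 (ENSMUSG00000023832, chr17:12942890-12960747, minus strand), the cytosolic thiolase that joins acetyl-CoA units at the head of the route, passed only in Gli1Het NSCs. It had 89.5, 88.8 and 85.4 CPM in Gli1Null cuprizone NSCs, against 105, 112 and 134 CPM in Gli1Null control NSCs. It had 85.5, 50.9 and 73.1 CPM in Gli1Het cuprizone NSCs, against 138, 103 and 107 CPM in Gli1Het control NSCs. The lowest value of the 12 was that of the library labelled Gli1Het cuprizone replicate 2, and the cuprizone and control libraries did not overlap in either genotype. On the log2 scale the fold change was -0.38 ± 0.183 (edgeR adjusted p = 0.300) in Gli1Null and -0.74 ± 0.184 (edgeR adjusted p = 0.0123) in Gli1Het NSCs, and -0.56 ± 0.148 (edgeR adjusted p = 0.0172) in Gli1Het NSCs without that library. Tm7sf2 (ENSMUSG00000024799, chr19:6062821-6068373, minus strand), a sterol reductase of the later steps, had 17.9, 14.9 and 14.8 CPM in Gli1Null cuprizone NSCs, against 23.1, 19.9 and 28.1 CPM in Gli1Null control NSCs. It had 16.7, 12.6 and 19.3 CPM in Gli1Het cuprizone NSCs, against 20.3, 26.4 and 24.4 CPM in Gli1Het control NSCs. The groups again did not overlap. Its log2 fold change was -0.55 ± 0.196 (edgeR adjusted p = 0.157) in Gli1Null and -0.56 ± 0.197 (edgeR adjusted p = 0.0451) in Gli1Het NSCs. That call was lost in 6 of 12 fits with a library left out, among them the one without the library labelled Gli1Het cuprizone replicate 2 (log2 fold change -0.41, edgeR adjusted p = 0.129) and those without Gli1Het control replicate 2 (0.124), Gli1Het control replicate 3 (0.0853), Gli1Null control replicate 1 (0.0543), Gli1Null cuprizone replicate 2 (0.0545) and Gli1Null cuprizone replicate 3 (0.0563).

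Among the enzymes that passed in no comparison, Lss, Mvd and Mvk had the smallest unadjusted p. Lss closes squalene epoxide into lanosterol, and Mvk and Mvd are mevalonate kinase and mevalonate diphosphate decarboxylase. Lss had 39.7, 37.8 and 37.2 CPM in Gli1Null cuprizone NSCs, against 51.5, 52.9 and 57.8 CPM in Gli1Null control NSCs. It had 44.1, 53.3 and 39.4 CPM in Gli1Het cuprizone NSCs, against 38.4, 53.0 and 58.7 CPM in Gli1Het control NSCs. The Gli1Null groups did not overlap and the Gli1Het groups did, with log2 fold changes of -0.47 ± 0.156 (edgeR adjusted p = 0.133) and -0.14 ± 0.157 (edgeR adjusted p = 0.494). Mvd had 23.8, 20.3 and 23.0 CPM in Gli1Null cuprizone NSCs, against 33.5, 28.8 and 31.1 CPM in Gli1Null control NSCs. It had 32.9, 28.4 and 27.7 CPM in Gli1Het cuprizone NSCs, against 21.6, 29.6 and 30.9 CPM in Gli1Het control NSCs. The Gli1Null groups were again apart, at -0.45 ± 0.154 (edgeR adjusted p = 0.146), and the Gli1Het groups overlapped, at 0.10 ± 0.155 (edgeR adjusted p = 0.623). Mvk had 20.6, 21.1 and 20.1 CPM in Gli1Null cuprizone NSCs, against 31.3, 22.9 and 30.0 CPM in Gli1Null control NSCs. It had 22.0, 20.4 and 22.3 CPM in Gli1Het cuprizone NSCs, against 28.4, 26.5 and 21.7 CPM in Gli1Het control NSCs. Its log2 fold changes were -0.42 ± 0.154 (edgeR adjusted p = 0.169) in Gli1Null NSCs, where the groups did not overlap, and -0.25 ± 0.155 (edgeR adjusted p = 0.218) in Gli1Het NSCs, where they did.

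The other 10 enzymes passed in neither genotype. Their log2 fold changes ran in Gli1Null NSCs from -0.87 (Idi1, which isomerises the isoprene units) to 0.29 (Sc5d, a sterol desaturase) and in Gli1Het NSCs from -0.35 (Idi1) to 0.72 (Sc5d). Sc5d was the 1 enzyme with a positive value in Gli1Null NSCs. Over the 12 libraries Pmvk, phosphomevalonate kinase, ran from 30.6 to 51.0 CPM, Idi1 from 5.55 to 22.8 CPM and Sqle, squalene epoxidase, from 171 to 319 CPM. Of the enzymes that trim and reduce the ring system, Msmo1 ran from 174 to 669 CPM, Nsdhl from 24.2 to 40.9 CPM, Hsd17b7 from 37.2 to 74.1 CPM, Ebp from 14.8 to 35.7 CPM and Dhcr7 from 25.7 to 62.5 CPM. In the library labelled Gli1Het cuprizone replicate 2 the late enzymes Msmo1, Ebp, Sc5d and Dhcr7 were at 2.95, 1.93, 2.1 and 2.14 times the mean of the other 2 libraries of its group, and Fdps, farnesyl diphosphate synthase, and Idi1 at 2.52 and 2.72 times. Without it Pmvk, Idi1, Fdps and Dhcr7 fell in Gli1Het NSCs, with log2 fold changes from -1.01 to -0.57 and edgeR adjusted p between 0.00104 and 0.0286. Fdps for example had 47.3, 117 and 45.2 CPM in Gli1Het cuprizone NSCs, against 98.2, 89.2 and 77.3 CPM in Gli1Het control NSCs, with the high value in that library alone. In Gli1Null NSCs Fdps, Sqle, Lss and Dhcr7 fell in the fit without it, at log2 fold changes of -0.79, -0.39, -0.47 and -0.53 and edgeR adjusted p from 0.00290 to 0.0472. Sc5d had 30.4, 71.1 and 37.2 CPM in Gli1Het cuprizone NSCs, against 16.9, 31.3 and 35.6 CPM in Gli1Het control NSCs, and rose in the fit without Gli1Het cuprizone replicate 1 (log2 fold change 0.91, edgeR adjusted p = 0.0399).

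**Figure D2:**
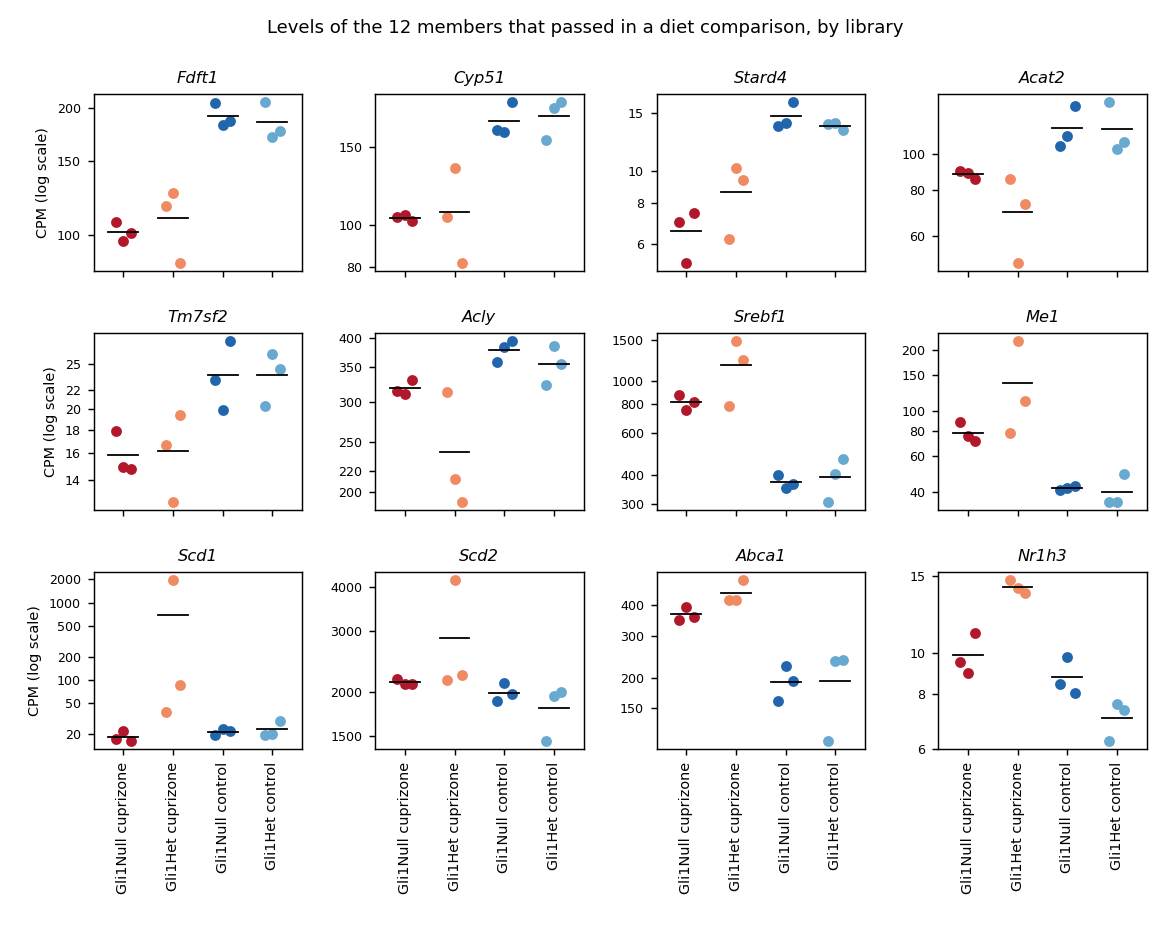
Levels in CPM on a log scale of the 12 members that passed in at least 1 diet comparison, with a point per library, the group mean as a line and the 4 groups from left to right. Fdft1, Cyp51, Stard4, Acat2, Tm7sf2 and Acly lie lower in the cuprizone groups, Srebf1, Me1 and Abca1 lie higher in both cuprizone groups, and Scd1 is high in Gli1Het cuprizone NSCs, where 1 library reaches 1967 CPM.

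Of sterol sensing and transport, 1 of 3 genes fell in each genotype, Stard4, where 0.25% of all genes fell in Gli1Null and 15.3% in Gli1Het NSCs. In Gli1Null NSCs all 3 had every cuprizone library below every control library (21.9% of all genes did) and the median log2 fold change was -0.69. Stard4 (ENSMUSG00000024378, chr18:33199355-33213862, minus strand) carries cholesterol between membranes and is itself induced when sterol is low. It had 7.01, 5.27 and 7.48 CPM in Gli1Null cuprizone NSCs, against 13.7, 14.0 and 16.3 CPM in Gli1Null control NSCs. It had 6.24, 10.2 and 9.39 CPM in Gli1Het cuprizone NSCs, against 13.9, 14.0 and 13.4 CPM in Gli1Het control NSCs. Its 6 cuprizone libraries lay below its 6 control libraries, at log2 fold changes of -1.12 ± 0.210 (edgeR adjusted p = 0.0155) in Gli1Null and -0.68 ± 0.210 (edgeR adjusted p = 0.0288) in Gli1Het NSCs. Its Gli1Null call was lost without each of 5 of the 6 Gli1Null libraries, all but cuprizone replicate 3 (edgeR adjusted p 0.0514 to 0.0680, log2 fold change -1.17 to -0.97), and its Gli1Het call without Gli1Het control replicate 1 or 2 (0.0542 and 0.0662, both at -0.70).

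Insig1, which keeps SREBP in the endoplasmic reticulum and is itself a target of SREBP, had 65.5, 71.3 and 56.3 CPM in Gli1Null cuprizone NSCs, against 82.0, 90.5 and 146 CPM in Gli1Null control NSCs. It had 68.6, 325 and 72.3 CPM in Gli1Het cuprizone NSCs, against 119, 114 and 112 CPM in Gli1Het control NSCs. The Gli1Null groups did not overlap, and in Gli1Het NSCs 2 cuprizone libraries lay below and the library labelled Gli1Het cuprizone replicate 2 far above the control libraries. Its log2 fold change was -0.69 ± 0.482 (edgeR adjusted p = 0.482) in Gli1Null and 0.42 ± 0.481 (edgeR adjusted p = 0.516) in Gli1Het NSCs. Without that library the value in Gli1Het NSCs turned to -0.72 ± 0.204 (edgeR adjusted p = 0.0232), and that in Gli1Null NSCs was -0.69 ± 0.178 (edgeR adjusted p = 0.0302). Srebf2 itself had 200.1, 207 and 224 CPM in Gli1Null cuprizone NSCs, against 259.8, 233 and 288 CPM in Gli1Null control NSCs. It had 239, 309 and 225 CPM in Gli1Het cuprizone NSCs, against 276, 258 and 253 CPM in Gli1Het control NSCs. Its log2 fold changes were -0.28 ± 0.136 (edgeR adjusted p = 0.308) in Gli1Null NSCs, with groups that did not overlap, and -0.04 ± 0.136 (edgeR adjusted p = 0.846) in Gli1Het NSCs, with groups that did.

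The genes of the liver X receptors and of cholesterol export had positive medians, 0.58 in Gli1Null and 0.81 in Gli1Het NSCs, and the library labelled Gli1Het cuprizone replicate 2 was not the highest of the 12 for any of them. Of these 4 members 0 rose in Gli1Null and 2 in Gli1Het NSCs, where 3.37% and 18.8% of all genes rose. Among 6 further liver X receptor targets and export genes edgeR called 0 in either genotype. Their medians were 0.13 in Gli1Null and 0.08 in Gli1Het NSCs, with 2 and 4 of the 6 at an unadjusted p under 0.05. Abca1 (ENSMUSG00000015243, chr4:53030787-53159895, minus strand) moves cholesterol out of the cell onto apolipoproteins, and its start region above holds 1 receptor word and 2 GC boxes. It had 348, 394 and 359.6 CPM in Gli1Null cuprizone NSCs, against 161, 225 and 194 CPM in Gli1Null control NSCs. It had 419.9, 422 and 512 CPM in Gli1Het cuprizone NSCs, against 109.6, 236 and 238 CPM in Gli1Het control NSCs. All 6 cuprizone libraries lay above all 6 control libraries. The log2 fold change was 0.96 ± 0.244 (edgeR adjusted p = 0.0538) in Gli1Null NSCs, just short of the threshold, and 1.21 ± 0.245 (edgeR adjusted p = 0.00512) in Gli1Het NSCs, a 2.31-fold rise that was kept whichever library was left out. The Gli1Null value passed without the library labelled Gli1Het cuprizone replicate 2 (edgeR adjusted p = 0.0249), Gli1Het control replicate 1 (0.00491) or Gli1Het cuprizone replicate 1 (0.0377), at a log2 fold change of 0.96 each.

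Nr1h3 (ENSMUSG00000002108, chr2:91184061-91202834, minus strand), the gene of liver X receptor alpha, had 9.51, 8.95 and 11.1 CPM in Gli1Null cuprizone NSCs, against 8.46, 9.77 and 8.06 CPM in Gli1Null control NSCs. It had 14.7, 14.1 and 13.7 CPM in Gli1Het cuprizone NSCs, against 6.25, 7.60 and 7.36 CPM in Gli1Het control NSCs. The Gli1Null groups overlapped, and the 3 Gli1Het cuprizone libraries were the highest of the 12 and close together. On the log2 scale the fold change was 0.20 ± 0.160 (edgeR adjusted p = 0.544) in Gli1Null and 0.99 ± 0.163 (edgeR adjusted p = 0.00200) in Gli1Het NSCs, a 1.99-fold rise that was kept in all 12 fits with a library left out. Nr1h2, the gene of liver X receptor beta, had 121, 115 and 124 CPM in Gli1Null cuprizone NSCs, against 125, 112 and 129.6 CPM in Gli1Null control NSCs. It had 124, 94.2 and 107 CPM in Gli1Het cuprizone NSCs, against 97.1, 113 and 116 CPM in Gli1Het control NSCs. Its groups overlapped in both genotypes, at 0.00 ± 0.122 (edgeR adjusted p = 0.992) and -0.02 ± 0.122 (edgeR adjusted p = 0.927). Abcg1, which moves cholesterol to lipoprotein particles, was low, with 9.76, 14.1 and 13.0 CPM in Gli1Null cuprizone NSCs, against 4.61, 4.48 and 9.52 CPM in Gli1Null control NSCs. It had 14.1, 7.90 and 9.39 CPM in Gli1Het cuprizone NSCs, against 5.45, 5.75 and 8.69 CPM in Gli1Het control NSCs. All 3 Gli1Null cuprizone libraries lay above the control ones, while the Gli1Het groups overlapped, at 1.01 ± 0.330 (edgeR adjusted p = 0.127) and 0.64 ± 0.332 (edgeR adjusted p = 0.153).

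Fatty acid synthesis held genes that moved each way, with medians of -0.18 in Gli1Null and 0.05 in Gli1Het NSCs. In Gli1Null NSCs 1 of the 11 genes rose and 0 fell, where 3.37% of all genes rose and 0.25% fell. In Gli1Het NSCs 4 of the 11 rose and 1 fell, where 18.8% of all genes rose and 15.3% fell. Srebf1 (ENSMUSG00000020538, chr11:60199089-60222581, minus strand), whose printed start window, 1 of 3 in the table, carries the receptor word 2 times, rose in both genotypes. It had 869, 755 and 815 CPM in Gli1Null cuprizone NSCs, against 401, 352 and 367 CPM in Gli1Null control NSCs. It had 787, 1485 and 1229 CPM in Gli1Het cuprizone NSCs, against 307, 402 and 468 CPM in Gli1Het control NSCs. The lowest cuprizone library, at 755 CPM, lay well above the highest control library, at 468 CPM. Its log2 fold change was 1.15 ± 0.215 (edgeR adjusted p = 0.0152) in Gli1Null and 1.56 ± 0.217 (edgeR adjusted p = 0.000992) in Gli1Het NSCs, 2.22-fold and 2.95-fold. The Gli1Het call was kept in all 12 fits with a library left out, and was 1.36 ± 0.192 (edgeR adjusted p = 0.000742) without the library labelled Gli1Het cuprizone replicate 2. The Gli1Null call was lost without each of 5 of the 6 Gli1Null libraries, all but cuprizone replicate 2 (edgeR adjusted p 0.0557 to 0.0746, log2 fold change 1.10 to 1.22).

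Scd1 (ENSMUSG00000037071, chr19:44394455-44407879, minus strand) makes stearoyl-CoA desaturase 1, which puts the double bond into oleate and is a target of both SREBP1 and the liver X receptors. It had 17.1, 21.8 and 16.3 CPM in Gli1Null cuprizone NSCs, against 19.1, 22.9 and 22.1 CPM in Gli1Null control NSCs, with overlapping groups. It had 38.7, 1967 and 84.7 CPM in Gli1Het cuprizone NSCs, against 19.4, 19.9 and 29.5 CPM in Gli1Het control NSCs. All 3 Gli1Het cuprizone libraries were above every other library, but the library labelled Gli1Het cuprizone replicate 2 was 31.9 times the mean of the other 2. The log2 fold change was -0.19 ± 0.998 (edgeR adjusted p = 0.937) in Gli1Null and 4.91 ± 1.16 (edgeR adjusted p = 0.00993) in Gli1Het NSCs, and 1.42 ± 0.278 (edgeR adjusted p = 0.00403) in Gli1Het NSCs without that library. Scd2 (ENSMUSG00000025203, chr19:44293674-44306864, plus strand), the main desaturase of the brain and the highest member per kilobase of exon, is close to it in sequence, and 0.982% of the 100-base words of its partner Scd1 also occurred in it. It had 2175, 2114 and 2113 CPM in Gli1Null cuprizone NSCs, against 1886, 2122 and 1978 CPM in Gli1Null control NSCs. It had 2160.2, 4196 and 2237 CPM in Gli1Het cuprizone NSCs, against 1452, 1956 and 2002 CPM in Gli1Het control NSCs. The Gli1Het groups did not overlap and the Gli1Null groups did. On the log2 scale the fold change was 0.13 ± 0.228 (edgeR adjusted p = 0.802) in Gli1Null and 0.66 ± 0.229 (edgeR adjusted p = 0.0443) in Gli1Het NSCs. That call held in 2 of 12 fits with a library left out, those without Gli1Het cuprizone replicate 1 or 3. It was lost without any other library, at edgeR adjusted p between 0.0611 and 0.151, and the log2 fold change was 0.28 without the library labelled Gli1Het cuprizone replicate 2.

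Me1 (ENSMUSG00000032418, chr9:86581371-86695953, minus strand), the malic enzyme that supplies NADPH for fatty acid synthesis, had 87.9, 75.6 and 70.8 CPM in Gli1Null cuprizone NSCs, against 40.5, 41.8 and 42.7 CPM in Gli1Null control NSCs. It had 77.9, 222 and 112 CPM in Gli1Het cuprizone NSCs, against 35.6, 35.7 and 48.6 CPM in Gli1Het control NSCs. The groups did not overlap in either genotype. Its log2 fold change was 0.94 ± 0.295 (edgeR adjusted p = 0.114) in Gli1Null and 1.77 ± 0.302 (edgeR adjusted p = 0.00235) in Gli1Het NSCs, where the call held whichever library was left out. The value without the library labelled Gli1Het cuprizone replicate 2 was 1.24 ± 0.172 (edgeR adjusted p = 0.000666) in Gli1Het and 0.94 ± 0.156 (edgeR adjusted p = 0.00403) in Gli1Null NSCs, and Me1 in Gli1Null NSCs also passed without Gli1Het cuprizone replicate 1 (edgeR adjusted p = 0.0240).

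Acly (ENSMUSG00000020917, chr11:100476353-100528000, minus strand), which makes the cytosolic acetyl-CoA used by both routes, was the 1 fatty acid gene that fell. It had 315, 311 and 329.8 CPM in Gli1Null cuprizone NSCs, against 358, 383 and 394 CPM in Gli1Null control NSCs. It had 313, 212 and 191 CPM in Gli1Het cuprizone NSCs, against 324, 384 and 356 CPM in Gli1Het control NSCs. No cuprizone library reached the control libraries of its own genotype. The log2 fold change was -0.22 ± 0.162 (edgeR adjusted p = 0.515) in Gli1Null and -0.58 ± 0.163 (edgeR adjusted p = 0.0200) in Gli1Het NSCs. The Gli1Het call was lost without Gli1Het control replicate 2 (log2 fold change -0.54, edgeR adjusted p = 0.0693) or Gli1Het cuprizone replicate 3 (-0.47, 0.0693).

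Of the fatty acid genes that did not pass, Fads2, Elovl6 and Acaca had the smallest unadjusted p. Fads2, the desaturase that starts the route to long polyunsaturated fatty acids, had 351, 345 and 354 CPM in Gli1Null cuprizone NSCs, against 342, 337 and 329.6 CPM in Gli1Null control NSCs. It had 297, 315 and 285 CPM in Gli1Het cuprizone NSCs, against 240.4, 351 and 355 CPM in Gli1Het control NSCs. The Gli1Null cuprizone libraries lay above all 3 of their controls by a small margin, at 0.09 ± 0.137 (edgeR adjusted p = 0.774), and the Gli1Het groups overlapped, at -0.09 ± 0.138 (edgeR adjusted p = 0.645). Elovl6, which lengthens palmitate, had 38.0, 40.0 and 37.5 CPM in Gli1Null cuprizone NSCs, against 43.1, 42.3 and 47.6 CPM in Gli1Null control NSCs. It had 38.9, 47.3 and 29.9 CPM in Gli1Het cuprizone NSCs, against 46.0, 50.4 and 45.8 CPM in Gli1Het control NSCs. The Gli1Null groups were apart, at -0.18 ± 0.146 (edgeR adjusted p = 0.557), and the Gli1Het groups overlapped, at -0.30 ± 0.147 (edgeR adjusted p = 0.130) and, without the library labelled Gli1Het cuprizone replicate 2, at -0.47 ± 0.128 (edgeR adjusted p = 0.0194). Acaca, the acetyl-CoA carboxylase that commits carbon to fatty acids, had 61.0, 84.6 and 68.1 CPM in Gli1Null cuprizone NSCs, against 73.7, 88.4 and 86.6 CPM in Gli1Null control NSCs. It had 76.5, 57.0 and 62.2 CPM in Gli1Het cuprizone NSCs, against 61.3, 97.1 and 90.8 CPM in Gli1Het control NSCs. Its groups overlapped in both genotypes, at -0.19 ± 0.180 (edgeR adjusted p = 0.605) and -0.36 ± 0.181 (edgeR adjusted p = 0.139). In Gli1Het NSCs it passed without Gli1Het control replicate 1 (log2 fold change -0.56, edgeR adjusted p = 0.0373) or Gli1Het cuprizone replicate 1 (-0.52, 0.0417). Fasn, fatty acid synthase, whose start window holds the same receptor word as that of Abca1, did not pass, at -0.19 ± 0.265 (edgeR adjusted p = 0.738) in Gli1Null and 0.05 ± 0.265 (edgeR adjusted p = 0.900) in Gli1Het NSCs. Fads1, a desaturase that acts after Fads2, and Acss2, which makes acetyl-CoA from acetate, did not pass either, with log2 fold changes of -0.21 and -0.07 in Gli1Null and -0.00 and 0.68 in Gli1Het NSCs, and the library labelled Gli1Het cuprizone replicate 2 held the highest level of the 12 for all of Fasn (365 to 784 CPM), Fads1 (409 to 589.8 CPM) and Acss2 (24.9 to 138 CPM).

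**Figure D3:**
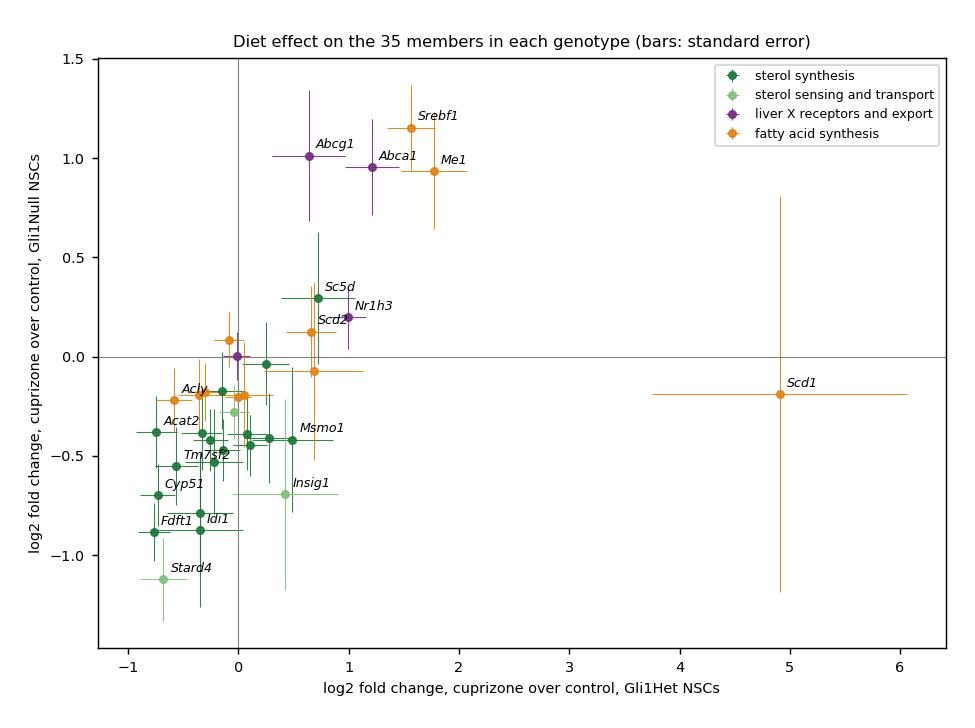
Each point is 1 of the 35 members, placed by its log2 fold change of cuprizone over control in Gli1Het NSCs (horizontal axis) and in Gli1Null NSCs (vertical axis), with bars of 1 standard error and the class as colour. All sterol synthesis genes except Sc5d lie below 0 on the vertical axis. Srebf1, Me1, Abca1 and Abcg1 lie above 0 on both axes, and Scd1 lies alone at 4.91 in Gli1Het and -0.19 in Gli1Null NSCs.

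Levels per kilobase of exon put Scd2 first in each of the 4 groups, at 391 CPM per kilobase in Gli1Null cuprizone and 524 in Gli1Het cuprizone NSCs, against 365 in Gli1Null control and 330.1 in Gli1Het control NSCs. Srebf1 came next in the cuprizone groups, at 144 in Gli1Null and 207 in Gli1Het NSCs. In the control groups, at 66.2 in Gli1Null and 69.7 in Gli1Het NSCs, it lay below Fads1 (102 and 104) and Fads2 (102 and 95.8). The 4 members with the highest group means were of the fatty acid class in each group. Among the sterol synthesis genes Acat2 had the highest mean per kilobase in Gli1Null cuprizone (34.6), Gli1Null control (45.9) and Gli1Het control NSCs (45.6), and Msmo1, a methyl sterol oxidase, in Gli1Het cuprizone NSCs (60.9), where the library labelled replicate 2 held 669 CPM of it. The length used was that of all annotated exons of a gene merged, and this ranking depends on it. In CPM, Msmo1 had means of 190, 259 and 265 in Gli1Null cuprizone, Gli1Null control and Gli1Het control NSCs. Those of Acat2 were 87.9, 117 and 116 CPM. Averaged over the 12 libraries, Stard4 at 1.95 and Abcg1 at 1.22 CPM per kilobase were the lowest members, and they were the lowest in each group. Because the kit does not mark strand, reads of Fdft1 and Ctsb, Srebf1 and Rai1, and Cyp51 and Akap9, whose gene models overlap on opposite strands, could not be told apart where they share sequence. Tm7sf2 and Vps51 overlap on the same strand, and their shared sequence cannot be assigned to either.

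Another 29 genes of the same routes were counted beside the members. In Gli1Null NSCs edgeR called 1 of the 29 as higher and 0 as lower, beside 3.37% and 0.25% of all genes. At an unadjusted p under 0.05 in either direction there were 4 of the 29, and 3188 of the 17623 genes tested. In Gli1Het NSCs 5 rose and 3 fell, beside 18.8% and 15.3% of all genes. In the 2 comparisons of the genotypes and in the interaction edgeR called 0 of the 29. At an unadjusted p under 0.05 there were 8 on cuprizone (24.9% of all genes), 1 on the control diet (1.44%) and 2 in the interaction (9.03%). Soat1, which esterifies cholesterol for storage, rose in both genotypes. It had 206, 201 and 169 CPM in Gli1Null cuprizone against 72.6, 97.8 and 82.7 CPM in Gli1Null control NSCs. It had 155, 237 and 197 CPM in Gli1Het cuprizone against 67.8, 70.4 and 84.7 CPM in Gli1Het control NSCs. The lowest of the 6 cuprizone libraries was above the highest control library, at log2 fold changes of 1.22 ± 0.169 (edgeR adjusted p = 0.00322) and 1.39 ± 0.170 (edgeR adjusted p = 0.000559). In Gli1Het NSCs Insig2 (0.59) and Scap (0.53), the partners that hold or carry SREBP, Elovl1 (0.83), which lengthens very long chains, and Acsl3 (0.68), which activates fatty acids, also rose by the log2 fold change in parentheses. Lbr (-0.94), a sterol reductase of the nuclear membrane, Acat1 (-0.54), the mitochondrial thiolase, and Mlxip (-0.71), a glucose-sensing factor, fell there.

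The next question was whether the genotypes differed under the same diet. On the control diet edgeR called 0 of 35 members and 0% of all genes, and DESeq2 called 0 members and 1 gene. At an unadjusted p under 0.05 there were 0 members and 253 genes (1.44%), and the members had log2 fold changes of Gli1Null over Gli1Het between -0.10 and 0.33. Even Gli1, the targeted gene, was thus not called by edgeR on this diet. Its levels were 0.362, 0.389 and 0.293 CPM in Gli1Null and 8.65, 18.3 and 17.8 CPM in Gli1Het control NSCs. The paper reported Gli1 as the only gene that differed there. A lack of edgeR calls between the genotypes therefore does not show that levels were equal. On cuprizone edgeR called 0 of 35 members as well, where 0.0227% of all genes were higher and 0.017% lower, while 8 members (24.9% of all genes) had an unadjusted p under 0.05 and DESeq2 called 2, Scd1 and Nr1h3, both lower, where it called 3.61% of all genes higher and 5.89% lower. All 3 Gli1Null cuprizone libraries lay above the 3 of Gli1Het for 1 member, Fads2, and below them for 8, which 10.8% and 16.8% of all genes did. Scd1 was nearest to the threshold, with 17.1, 21.8 and 16.3 CPM in Gli1Null cuprizone and 38.7, 1967 and 84.7 CPM in Gli1Het cuprizone NSCs, groups that did not overlap. Its log2 fold change was -5.18 ± 1.17 (edgeR adjusted p = 0.0649), and -1.69 ± 0.278 (edgeR adjusted p = 0.0377) without the library labelled Gli1Het cuprizone replicate 2. It passed as well without Gli1Het cuprizone replicate 1, at -5.71 (edgeR adjusted p = 0.00152).

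The fit without Gli1Het cuprizone replicate 1 called 8 members between the cuprizone groups, 2 higher in Gli1Null NSCs (Acly 0.75 and Acat2 0.59 as log2 fold changes) and 6 lower (Scd1, Insig1 -1.54, Msmo1 -1.20, Me1 -1.01, Ebp -0.73 and Srebf1 -0.65). In that fit 16.4% of all genes were higher and 11.7% lower, so that the share of members called, both directions together, was not above that of all genes. That fit still holds the library labelled Gli1Het cuprizone replicate 2. Without that last library the sterol synthesis median between the cuprizone groups was -0.05, beside -0.21 with it. Nr1h3 had 9.51, 8.95 and 11.1 CPM in Gli1Null cuprizone and 14.7, 14.1 and 13.7 CPM in Gli1Het cuprizone NSCs, which did not overlap, at -0.47 ± 0.160 (edgeR adjusted p = 0.122). Abca1 had 348, 394 and 359.6 CPM in Gli1Null cuprizone and 419.9, 422 and 512 CPM in Gli1Het cuprizone NSCs, also without overlap, at -0.24 ± 0.241 (edgeR adjusted p = 0.546).

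The test of whether the diet effect itself differed between the genotypes called 0 of 35 members and 0% of all genes in edgeR, with 3 members and 1591 genes (9.03%) at an unadjusted p under 0.05, while DESeq2 called 0 members and 59 genes. These 3 were Nr1h3, at -0.79 ± 0.228 (edgeR adjusted p = 0.543), Scd1, at -5.10 ± 1.48 (edgeR adjusted p = 0.543), and Mvd, at -0.55 ± 0.218 (edgeR adjusted p = 0.543), each as the log2 diet effect in Gli1Null minus that in Gli1Het NSCs. Without the library labelled Gli1Het cuprizone replicate 2, the value of Scd1 was -1.61 ± 0.376 (edgeR adjusted p = 0.543) and that of Nr1h3 -0.80 ± 0.241 (edgeR adjusted p = 0.641). Without Gli1Het cuprizone replicate 1, Scd1 passed at -5.61 (edgeR adjusted p = 0.0155) and Acly at 0.64 (0.0274). The sterol synthesis class had a median of -0.31, and -0.00 without the library labelled Gli1Het cuprizone replicate 2.

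**Figure D4:**
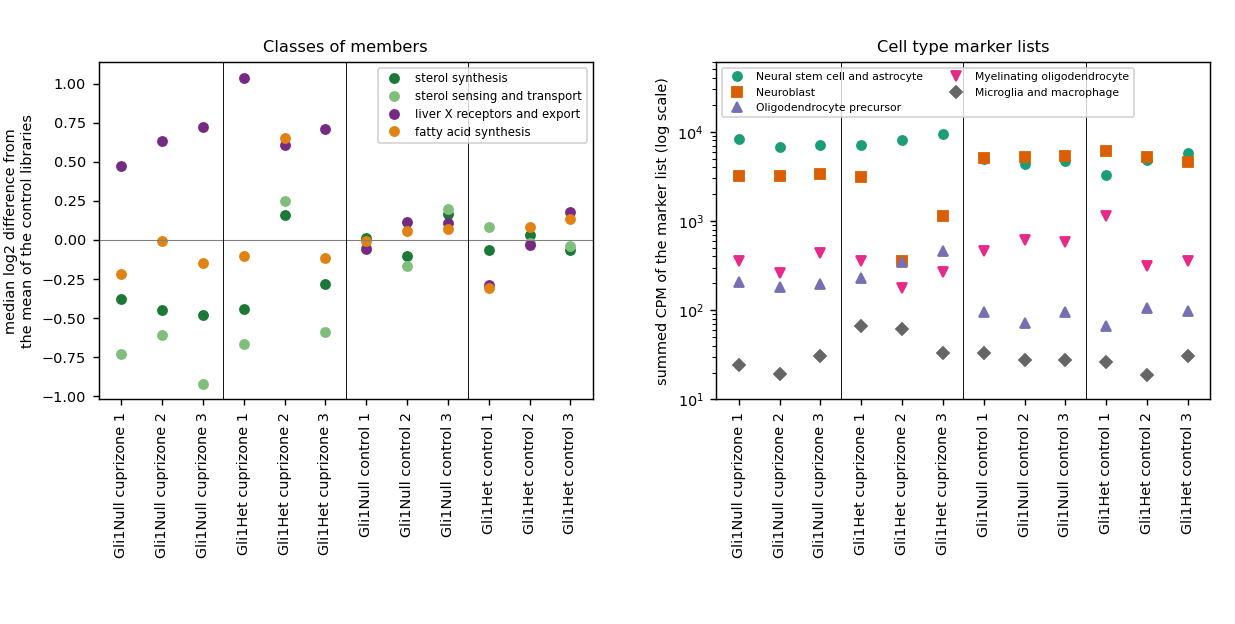
The left panel gives, for each library, the median over the members of a class of the log2 CPM minus the mean of the control libraries, and the right panel the summed CPM of 5 marker lists on a log scale. The liver X receptor and export class lies above 0 and the sterol synthesis class below 0 in the cuprizone libraries, except that sterol synthesis lies at 0.16 in the library labelled Gli1Het cuprizone replicate 2. The neuroblast list is at 357 CPM there.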

How the data were processed

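GFP+ cells were sorted from the SVZ, RNA was extracted with the PicoPure kit, and libraries were made with SMART-Seq v4 and Nextera XT. According to the methods and processing notes, the authors used FastQC 0.11.5 for read quality, TopHat2 2.1.1 for alignment to mm10 and HTSeq 0.11.1 for counting per gene, and compared groups in pairs with DESeq2 1.12. The strand setting of the counting was not given in the sources used here. The deposited count sheet held whole-number counts for 37991 gene IDs. Its first column named another gene than the count cells on 33998 lines, so each ID was read from beside its own counts. The other deposited table held the authors' normalized signal, counts divided by size factors, and 100% of its values above 0 gave back the whole count within 0.01. Lines that named no gene, mostly reads in no annotated feature (54.5% to 58.4% of all counted reads), were left out.

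Counts were fitted with edgeR 4.0.16 (R 4.3.3) by quasi-likelihood, with the 4 groups in a single model and TMM normalization, after filterByExpr at a minimum count of 10, which kept 17623 genes. P-values were adjusted by the Benjamini-Hochberg method over all of them, with a threshold of 0.05. CPM are counts per 1000000 counts in genes, and standard errors are the log2 fold change divided by the square root of F. The procedure was tested on simulated data in which each gene had the same spread in all groups, so unequal spread between groups was not covered. The members, lists and rules were chosen with earlier results of these data known. A gene of the related routes is not reported here and was left out of their counts. Values in every library were given for the members that passed in any comparison and, in each class, for up to 3 more with the smallest unadjusted p. Alternatives were DESeq2 1.42.0, DESeq2 size factors, no filter, only the groups compared, limma-voom (limma 3.58.1) with library quality weights, a replicate block, and leaving out each library. The receptor word was added to the promoter search after the windows had been seen. Gene positions are from GENCODE M21 and start windows from RefSeq GRCm38.p6.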

Additional observations from a re-analysis of the deposited data

Results flagged for a closer look

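For Mvd and Fads2 the diet effect ran in opposite directions in the 2 genotypes in all 6 cuprizone libraries, each set in CPM against the mean of the control libraries of its genotype, and the difference was tested by the interaction in edgeR. Mvd had a log2 diet effect of -0.45 in Gli1Null and 0.10 in Gli1Het NSCs, a difference of -0.55 ± 0.218 (edgeR adjusted p = 0.543). Its margin was small in Gli1Het cuprizone replicate 3, at 27.7 CPM against a mean of 27.4 CPM in Gli1Het control NSCs. With 1 library left out its Gli1Het diet effect ran from -0.06 to 0.17, so its direction there was not firm. For Fads2 the margin was small in Gli1Het cuprizone replicate 2, at 315 CPM against a mean of 316 CPM in Gli1Het control NSCs, and on the log2 scale that library lay above the control mean. Fads2 had 0.09 in Gli1Null and -0.09 in Gli1Het NSCs, a difference of 0.17 ± 0.194 (edgeR adjusted p = 0.727).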

How the results depend on the processing

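The counts of called genes depended on how the spread of the libraries was modelled. For the diet effect in Gli1Het NSCs 12 members and 5995 genes passed. With only the groups compared in the fit 3 members and 961 genes passed, and with limma-voom and library quality weights 22 members and 10013 genes. The quality weights were 0.277, 0.115 and 3.63 for Gli1Het cuprizone replicates 1, 2 and 3. They were 0.488, 2.90 and 0.895 for Gli1Het control replicates 1, 2 and 3. The limma-voom results for Gli1Het NSCs, and between genotypes on cuprizone, thus rested largely on 1 library of a group. For the diet effect in Gli1Null NSCs, with 4 members and 638 genes, DESeq2 called 7 and 1321, the fit of only the groups compared 20 and 4193, and limma-voom 21 and 4634. Between the genotypes on cuprizone, with 0 members and 7 genes, DESeq2 called 2 and 1719, the fit with no filter on low counts 1 and 469, and limma-voom 14 and 6674, while only the groups compared gave 0 members and 1 gene. On the control diet DESeq2, only the groups compared and limma-voom each called 1 gene and 0 members. For the interaction DESeq2 called 59 genes and 0 members, and limma-voom 2724 genes and 5 members. Leaving out 1 library at a time gave 8 to 16 members and 3173 to 8496 genes for the diet in Gli1Het NSCs, 1 to 11 and 140 to 1888 in Gli1Null NSCs, 0 to 8 and 0 to 5096 between genotypes on cuprizone, 0 members and 0 to 1 gene on the control diet, and 0 to 2 and 0 to 1714 for the interaction. DESeq2 size factors moved no count by over 1.5 times. The causes were not tested.

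With the replicate block 400 genes and 4 members passed for the diet in Gli1Null NSCs, where Cyp51 was lost (edgeR adjusted p = 0.0620) and Abca1 gained (edgeR adjusted p = 0.0443), and 1 gene on cuprizone between genotypes. Same-numbered libraries did not deviate together (18 pairs, correlations from -0.118 to 0.120, 2 over 0.1), and 1 of 12 libraries correlated best with its own number. The replicate number thus marked no visible pairing, but these correlations cannot exclude a batch shared by some libraries.

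For 3 members a value that had not passed turned its sign and passed. In Gli1Het NSCs the diet effect on Insig1 was -0.58 with limma-voom and -0.72 without Gli1Het cuprizone replicate 2 (range with 1 library left out -0.72 to 0.75), and that on Fasn was -0.54 with limma-voom. Between genotypes on cuprizone Idi1 was at 0.90 with limma-voom. The members with the lowest mean level over the 12 libraries, and so with few reads, were Abcg1, Nr1h3 and Stard4, at 8.89, 9.97 and 10.9 CPM.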
